A study of Mus musculus with 6 samples.

Results

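The tumour necrosis factor (TNF) superfamily was examined in cultured mouse bone marrow-derived macrophages. Genes were taken by name, as those whose symbol is Tnfsf or Tnfrsf followed by a number and at most 1 letter, together with Tnf, Lta, Ltb, Ltbr, Fas, Fasl, Cd27, Cd40, Cd70, Ngfr and Edar. The expression table held 34 such genes, 12 ligands and 22 receptors, among 17313 genes. Further family names (Lta, Fasl, Cd70, Tnfsf4, Edar, Cd27 and Tnfrsf13c) and Tnfrsf11a, which was left out of the name rule, were not analysed here.

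Poly(A) RNA was sequenced in 6 libraries of bone marrow-derived macrophages from C57BL/6 mice. Floxed Hdac2 alleles were shared by both groups, and every mouse had received LLC1 cells by vein, a mouse Lewis lung carcinoma line, with marrow harvested on day 20. The 3 WT libraries came from Hdac2fl/fl mice without Cre, and the 3 KO libraries from mice written Hdac2fl/fLysMCre, in which the Cre recombinase is driven by the Lyz2 (LysM) gene of myeloid cells. HDAC2 is a histone deacetylase. The comparison asks what its loss in that lineage changes in macrophages of tumour-bearing mice. Whether the 3 libraries of a group were made from different mice is not in the labels, and the p-values therefore reflect library spread that may be technical.

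TNF superfamily ligands are mostly membrane proteins that assemble as trimers and can be shed as soluble cytokines. Their receptors fall into groups by what binds their cytoplasmic tails. Death domain receptors recruit TRADD or FADD and can start apoptosis, others bind TRAF adaptors and activate NF-kB, and decoy receptors bind ligand without signalling. Macrophages are known as a main source of TNF and respond to it through TNFR1 and TNFR2.

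Values are read counts per gene that the authors scaled by library and rounded, called scaled counts. Library totals ran from 5704313 to 5837994. Hdac2 stood at 534, 482 and 518 in the WT libraries and 392, 387 and 375 in the KO libraries, without overlap, lower in the group labelled KO but far from 0. Which exons the floxed allele loses is not stated. The WT libraries were not alike. Xist, the RNA of the silenced X chromosome, was at 5243 in WT 1 but at 0 and 74 in WT 2 and WT 3, against 3298 to 4997 in KO, while the Y-linked Kdm5d was at 34 in WT 1, 473 and 482 in WT 2 and WT 3, and at most 5 in KO. A list of 14 fibroblast and stroma markers summed to 16002 in WT 1 but 6490 and 7050 in WT 2 and WT 3, while KO 1 to KO 3 gave 21157, 19505 and 16380. Its defining collagen genes Col1a1 and Col1a2 were at 1749 or more in every library, while Lum was at 0 in WT 2, WT 3 and KO 3. The 12 macrophage markers, among them Adgre1, Csf1r and Cd68, summed to 13630 to 14819 in WT and 12332 to 13159 in KO. The 4 Y-linked genes read (Ddx3y, Eif2s3y, Kdm5d and Uty) were all between 179 and 745 in WT 2 and WT 3, between 23 and 44 in WT 1 and at most 10 in KO. The labels do not give the sex of the mice, which may therefore differ between the groups and within WT, and its part in the differences between KO and WT was not tested. For family genes given library by library and tested, the difference against WT 1 alone is given beside that against all WT libraries, and in bulk RNA fewer cells of a type and less RNA per cell cannot be told apart.

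The family as a whole took a similar share of each library. Its 34 genes summed to 6938, 6943 and 6520 scaled counts in WT and to 6721, 6594 and 6989 in KO, between 0.113% and 0.123% of the library total. The most abundant receptors per kilobase of exon were Tnfrsf1b, which encodes TNFR2, at a mean of 432 over all libraries, Tnfrsf1a, which encodes TNFR1, at 333, and Ltbr, the lymphotoxin beta receptor, at 243. The most abundant ligands per kilobase were Tnf at 174 and Tnfsf12, which encodes TWEAK, at 171. The B cell survival ligand gene Tnfsf13b stood at 14.9 on the same scale, far below these.

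**Figure D1:**
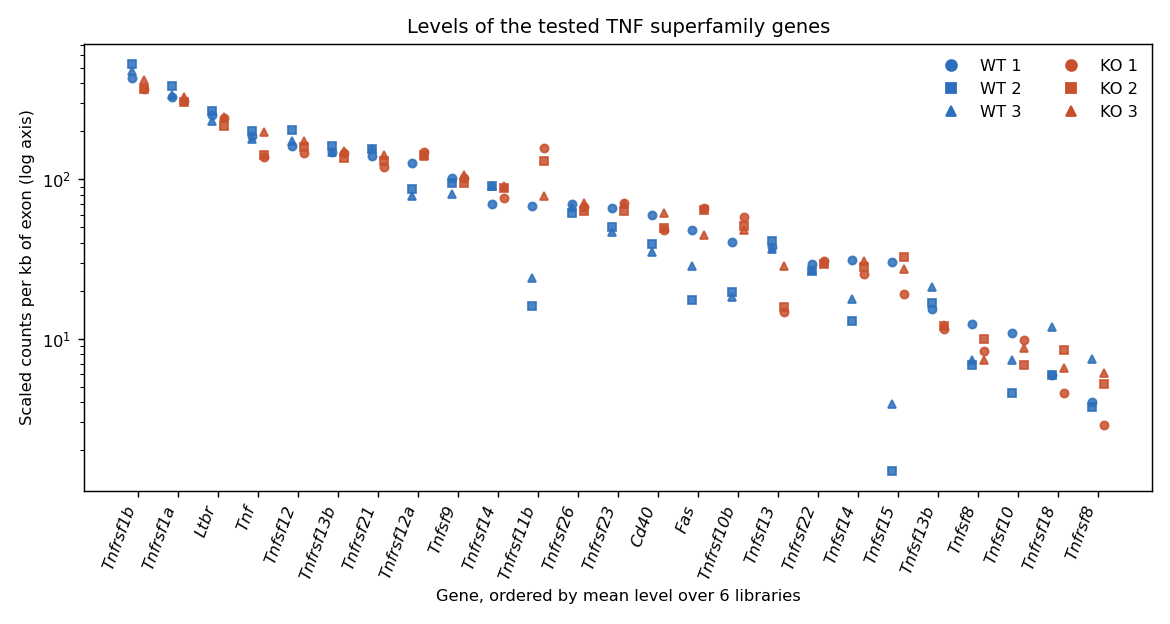
Level of each of the 25 tested TNF superfamily genes in scaled counts per kilobase of exon (log axis), with 1 point per library, WT in blue and KO in red. Tnfrsf1b, Tnfrsf1a and Ltbr lead, and Tnfrsf11b, Fas, Tnfrsf10b and Tnfsf15 show WT 2 and WT 3 below the other libraries.

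Of the 34 genes, 25 had 3 or more libraries at 10 or above and were tested, 9 ligands and 16 receptors. Tested with limma on log2(scaled count + 1), none passed an adjusted p under 0.05 in either direction, as for all 13260 genes (0%). At an unadjusted p under 0.05, 4 were higher and 4 lower in KO, namely Tnfrsf11b, Tnfrsf10b, Tnfrsf12a and Fas against Tnfsf13b, Tnfsf13, Tnfrsf1b and Tnfrsf21, or 32% of the 25 beside 24.4% of all genes tested, with backgrounds of 14.7% higher and 9.68% lower. The groups did not overlap for 3 genes with higher KO values and 4 with lower ones, or 28% of the 25, beside 29.5% of all genes (16.1% above and 13.4% below). These shares lay near the background and are not a result about the family. The median log2 difference, KO minus WT, was 0.03 for the 25 genes and -0.0046 for all genes, and under cyclic loess scaling it was -0.02 for the 25 genes. With 3 libraries against 3, an exact permutation test of a single gene cannot give a two-sided p below 0.1, the value it gave for each tested gene whose groups did not overlap.

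**Figure D2:**
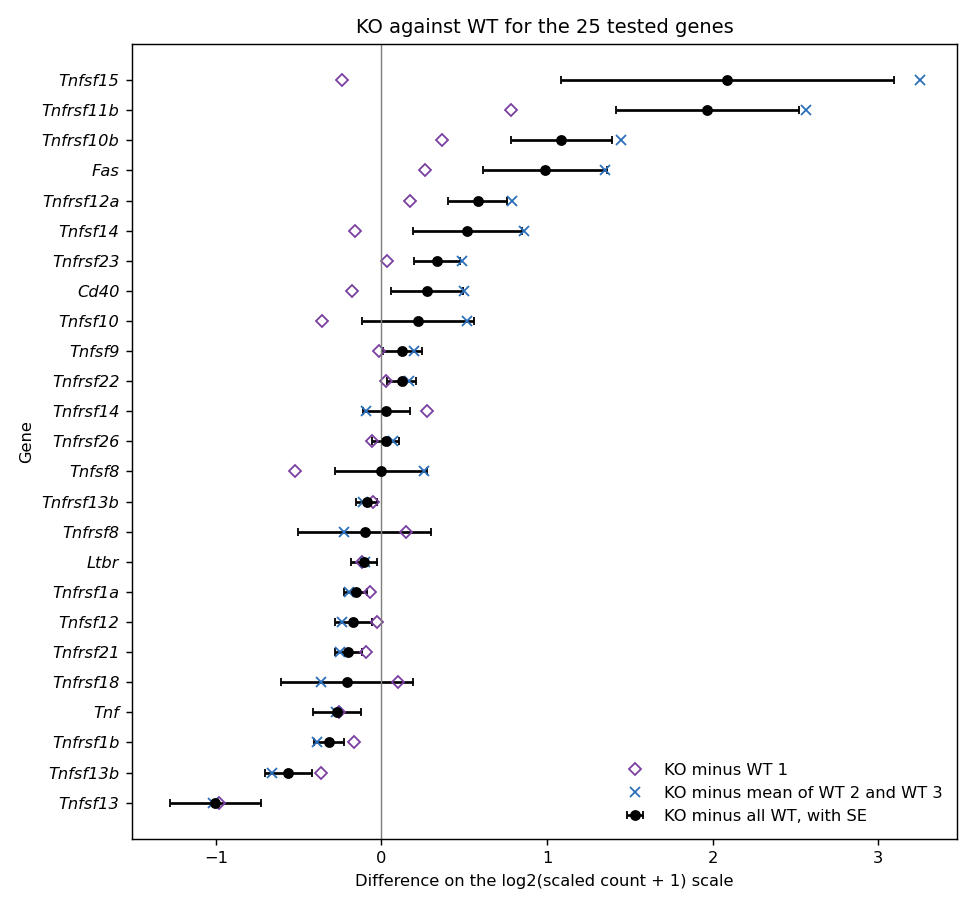
Difference between KO and WT on the log2(scaled count + 1) scale for the 25 tested genes, ordered by size. Black points with SE bars use all libraries, diamonds set KO against WT 1 alone and crosses set KO against the mean of WT 2 and WT 3. For Tnfsf15 the difference is 3.25 by the crosses and -0.24 by the diamonds, while for Tnfsf13 they are -1.01 and -0.98.

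Among the ligands, those of the APRIL and BAFF pair were lower in KO. Tnfsf13 (chromosome 11, 69682846 to 69685784, mm10) encodes APRIL, a cytokine that supports plasma cells, and its WT libraries held 62, 67 and 60 scaled counts, its KO libraries 24, 26 and 47. All WT libraries lay close together, and all KO libraries lay below them, KO 3 the least. Means were 63.0 ± 3.61 in WT and 32.3 ± 12.7 in KO (SD, n = 3 each), a ratio of 0.513. The log2 difference was -1.004 ± 0.276 (SE), with a limma adjusted p of 0.158. It was almost the same against WT 1 alone (-0.98) as against the mean of WT 2 and WT 3 (-1.01).

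Only some reads of Tnfsf13 can be assigned to it alone. In GENCODE M21, 983 of its 1637 exonic bases, 60.0%, are shared with Tnfsfm13, a read-through gene on the same strand that joins Tnfsf12 to Tnfsf13, and 221 bases lie opposite exons of the antisense gene Tnfsf13os. The other 654 bases lie outside both, and how reads on shared bases were counted is not stated. Counting by strand is not stated in the sources used here. Tnfsfm13 stood at 45, 65 and 54 in the WT libraries and 36, 31 and 40 in the KO libraries, again without overlap (log2 difference -0.59 ± 0.20, limma adjusted p = 0.163). Tnfsf13os stood at 85, 70 and 98 and at 28, 21 and 32 (-1.61 ± 0.22, limma adjusted p = 0.158). Tnfsf12, the upstream neighbour (chromosome 11, 69686250 to 69695849), shares 731 of its 1515 exonic bases with the read-through gene. It encodes TWEAK, the ligand of the receptor Fn14, and its groups overlapped, with 247, 310 and 265 in the WT libraries and 223, 242 and 264 in the KO libraries. Its log2 difference was -0.17 ± 0.11 (limma adjusted p = 0.386) and -0.03 against WT 1 alone. The 6 other tested genes within 50 kb of Tnfsf13 had log2 differences from -0.22 to -0.06, and 2 of them, the neighbours Cd68 and Eif4a1, had an unadjusted p under 0.05.

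**Figure D3:**
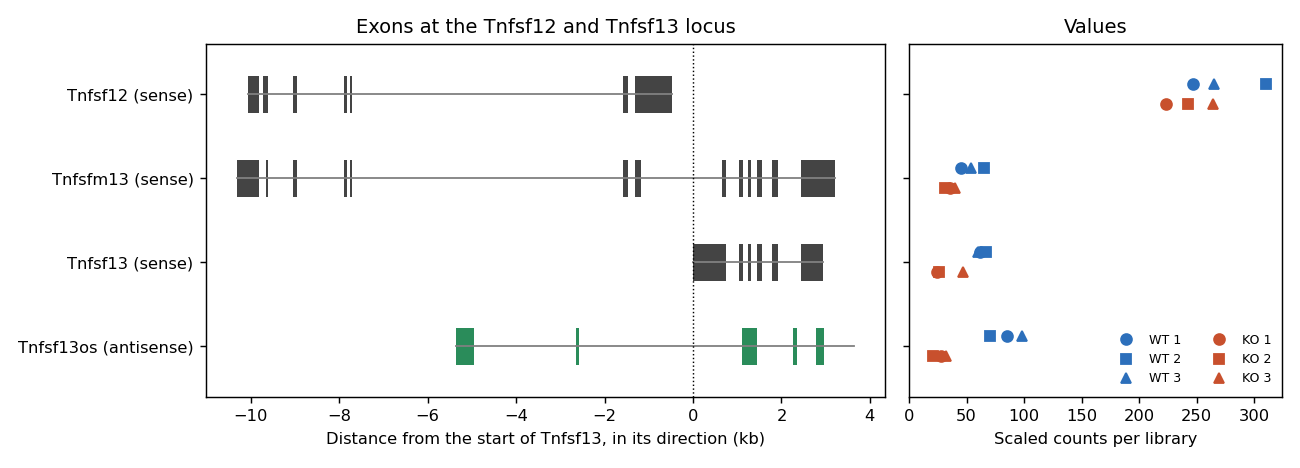
Exons of the genes at the Tnfsf12 and Tnfsf13 locus by distance in kilobases from the start of Tnfsf13 (left; sense genes in black, the antisense gene in green), and the scaled counts of each gene in the 6 libraries (right; WT blue, KO red). WT and KO values separate for Tnfsf13, Tnfsfm13 and Tnfsf13os and overlap for Tnfsf12.

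Tnfsf13b (chromosome 8, 10006467 to 10039072) encodes BAFF, the B cell survival factor that shares receptors with APRIL. It stood at 106, 116 and 146 in the WT libraries and 79, 83 and 84 in the KO libraries, which all lay below the WT ones, with means of 123 ± 20.8 and 82.0 ± 2.65 (SD, n = 3). The log2 difference was -0.56 ± 0.14, with the smallest limma p of the 25 genes (adjusted p = 0.158), and it was -0.37 against WT 1 alone and -0.66 against WT 2 and WT 3. Of the receptors for these ligands, Tnfrsf13b, which encodes TACI, was at 423, 462 and 421 in the WT libraries and 414, 388 and 426 in the KO libraries, with overlap (limma adjusted p = 0.439, log2 difference -0.09 and -0.05 against WT 1 alone). Tnfrsf17, which encodes BCMA, was between 1 and 4 in every library and was not tested. Of 9 B cell and plasma cell markers, 5 had values. They summed to 237, 187 and 244 in WT but 172, 177 and 157 in KO, lower without overlap. Cd22 alone made up most of the sum in every library, and the other markers did not all move with it. Cd22 (113 to 195 over all libraries) and Jchain (1 to 40) were lower in KO without overlap, Cd79b (9 to 39) was higher without overlap, and Ms4a1 (0 to 4) and Fcrla (2 or 3) were near 0. The part of such cells in the ligand results was not tested.

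The remaining tested ligands overlapped between the groups. Tnf itself (chromosome 17, 35199381 to 35202007) stood at 308, 330 and 294 in the WT libraries and 226, 234 and 323 in the KO libraries. KO 1 and KO 2 lay below all WT libraries and KO 3 within their range. The log2 difference of -0.27 ± 0.15 had a limma adjusted p of 0.308 and was -0.26 against WT 1 alone. Tnfsf15, which encodes TL1A, a costimulator of T cells made by endothelial and myeloid cells, was at 102, 5 and 13 in the WT libraries and 64, 109 and 92 in the KO libraries. Here WT 1 lay within the KO range and WT 2 and WT 3 far below it. Its log2 difference of 2.09 ± 1.00 (limma adjusted p = 0.258) became 3.25 without WT 1 and turned to -0.24 against WT 1 alone. Tnfsf14, which encodes LIGHT, a ligand of HVEM and the lymphotoxin beta receptor, was at 58, 24 and 33 and at 47, 52 and 57, with WT 1 just above the KO values and WT 2 and WT 3 below them (0.52 ± 0.33, limma adjusted p = 0.371, and -0.16 against WT 1 alone). The TRAIL gene Tnfsf10 was at 57, 24 and 39 in the WT libraries and 52, 36 and 46 in the KO libraries. Its log2 difference was 0.22 ± 0.34 (limma adjusted p = 0.734) and -0.36 against WT 1 alone. The 4-1BB ligand gene Tnfsf9 ranged from 105 to 138 over all libraries and the CD30 ligand gene Tnfsf8 from 26 to 47, each with overlapping groups.

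Low ligands were read as values only. Tnfsf11, which encodes RANKL, the cytokine that drives osteoclast formation, was listed at 0, 1 and 0 in the WT libraries and 14, 10 and 3 in the KO libraries. It is made mainly by stromal and lymphoid cells. No fold is given against a group near 0, and Tnfsf11 did not reach the filter. Ltb was at 1 to 4 and Tnfsf18, the GITR ligand gene, at 2 to 9 in all libraries.

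Among the death domain receptors, Tnfrsf10b and Fas stood higher and Tnfrsf1a and Tnfrsf21 slightly lower in KO. Tnfrsf10b (chromosome 14, 69767472 to 69784411) encodes the mouse TRAIL receptor that triggers apoptosis. It was at 221, 108 and 100 in the WT libraries and 318, 278 and 262 in the KO libraries. WT 1 lay between the other WT libraries and KO, and the groups did not overlap. The mean was 143 ± 67.7 in WT and 286 ± 28.8 in KO (SD, n = 3), and the log2 difference was 1.09 ± 0.31 (limma adjusted p = 0.158). It was 0.37 against WT 1 alone and 1.45 against WT 2 and WT 3.

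Fas (chromosome 19, 34290666 to 34327772) encodes the receptor of Fas ligand. It was at 99, 36 and 59 in the WT libraries and 137, 132 and 93 in the KO libraries, and only KO 3 and WT 1 overlapped. The log2 difference was 0.99 ± 0.38 (limma adjusted p = 0.184) and 0.26 against WT 1 alone. Tnfrsf21, which encodes death receptor 6, was at 574, 642 and 639 in the WT libraries and 494, 538 and 585 in the KO libraries, with KO 3 above WT 1 (-0.20 ± 0.081, limma adjusted p = 0.203, and -0.09 against WT 1 alone). Tnfrsf1a (chromosome 6, 125349362 to 125362484), the widely expressed receptor of TNF, was at 857, 994 and 880 in the WT libraries and 804, 795 and 851 in the KO libraries. WT 1 and KO 3 lay almost level, though the groups did not overlap. Its log2 difference of -0.15 ± 0.069 had a limma adjusted p of 0.234, with -0.07 against WT 1 alone. The neurotrophin receptor gene Ngfr and Tnfrsf25, the receptor of TL1A, did not exceed 6 in any library.

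Of the receptors that bind TRAF proteins, the TNFR2 gene was lower and the Fn14 gene higher in KO. Tnfrsf1b (chromosome 4, 145213463 to 145246870) encodes TNFR2, which is found mainly on immune cells. It was at 1648, 2012 and 1837 in the WT libraries and 1399, 1416 and 1595 in the KO libraries, without overlap and with means of 1832 ± 182 and 1470 ± 109 (SD, n = 3). The log2 difference was -0.32 ± 0.091 (limma adjusted p = 0.158), -0.17 against WT 1 alone and -0.22 under cyclic loess, a scaling that removes shifts that depend on abundance. Over the same libraries the summed macrophage markers ranged from 13630 to 14819 in WT and from 12332 to 13159 in KO. Of the 12 markers, 10 were lower in the KO mean, beside 6750 of all 13260 genes. With an unadjusted limma p under 0.05, 8 were lower, beside 9.68% of all genes, and 0 higher. The median log2 difference of these markers was -0.18, and -0.10 under cyclic loess. Their part in the TNFR2 result was not tested.

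Tnfrsf12a (chromosome 17, 23675445 to 23677468) encodes Fn14, the receptor of TWEAK, known from fibroblasts and injured tissue. It was at 246, 168 and 153 in the WT libraries and 286, 276 and 270 in the KO libraries. The KO libraries were close together and above all WT libraries, of which WT 1 was nearest. The mean was 189 ± 49.9 in WT and 277 ± 8.08 in KO (SD, n = 3), and the log2 difference 0.58 ± 0.18 (limma adjusted p = 0.158), 0.17 against WT 1 alone and 0.79 against WT 2 and WT 3. Cd40, the receptor of helper T cell signals, was at 203, 134 and 120 and at 165, 168 and 209, with WT 1 among the KO values (limma adjusted p = 0.477, log2 difference 0.27 but -0.18 against WT 1 alone). Ltbr was at 598, 634 and 550 and at 573, 506 and 578 (limma adjusted p = 0.459, log2 difference -0.10 and -0.12 against WT 1 alone). Tnfrsf14, which encodes HVEM, ranged from 101 to 131, the CD30 gene Tnfrsf8 from 10 to 26 and the GITR gene Tnfrsf18 from 7 to 18 over all libraries.

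Several TRAF-binding receptors were near 0. Tnfrsf19, known as TROY, was listed at 0 in every WT library and at 7, 3 and 2 in KO. The 4-1BB gene Tnfrsf9 was at 1, 2 and 2 and at 5, 6 and 3, and the OX40 gene Tnfrsf4 at 6 to 12 over all libraries. None of these reached the filter. Without a filter, Tnfsf11, Tnfrsf19 and Tnfrsf9 did not pass limma after adjustment over 17313 genes (adjusted p = 0.162 for Tnfsf11 and Tnfrsf19 and 0.196 for Tnfrsf9).

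The largest log2 difference among the 16 tested receptors was that of the decoy receptor gene Tnfrsf11b (chromosome 15, 54250619 to 54278484). It encodes osteoprotegerin, a soluble protein of stromal and bone-forming cells that binds RANKL and TRAIL. Tnfrsf11b stood at 192, 45 and 68 in the WT libraries and 441, 370 and 223 in the KO libraries. WT 1 and KO 3 lay nearest each other, and the groups did not overlap. Means were 102 ± 79.1 in WT and 345 ± 111 in KO (SD, n = 3), a ratio of 3.39. The log2 difference was 1.97 ± 0.55 (limma adjusted p = 0.158), 0.78 against WT 1 alone and 2.56 against WT 2 and WT 3.

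The other receptors of this group are a chromosome 7 cluster of relatives, Tnfrsf26, Tnfrsf22 and Tnfrsf23, whose reads may be shared between near copies. Tnfrsf22 and Tnfrsf23 are known in the mouse as decoy receptors of TRAIL. Tnfrsf23 was at 263, 200 and 185 in the WT libraries and 281, 251 and 278 in the KO libraries, with WT 1 among the KO values (0.34 ± 0.14, limma adjusted p = 0.214, and 0.04 against WT 1 alone). Tnfrsf22 ranged from 113 to 130 and Tnfrsf26 from 198 to 229 over all libraries, with overlapping groups. Part of the exons of Tnfrsf23 (4.1%) and Tnfrsf26 (3.3%) lies opposite an antisense gene.

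**Figure D4:**
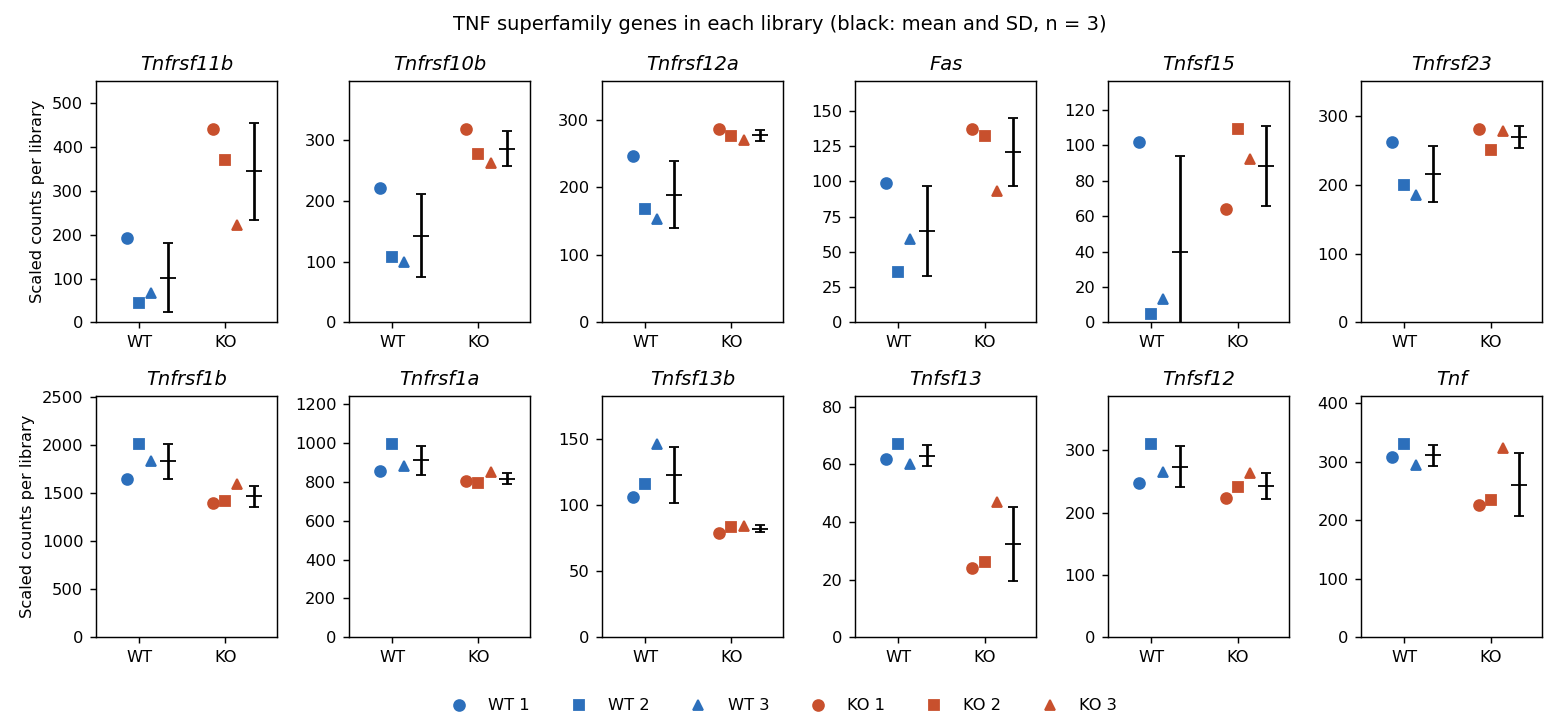
Scaled counts of 12 TNF superfamily genes in each library, with WT in blue, KO in red, a marker shape per replicate number and black bars for the mean and SD (n = 3; the SD bar of WT in Tnfsf15 reaches below 0 and is not drawn there). In the upper row WT 1 lies nearer to KO than WT 2 and WT 3 do, and in Tnfsf13 all WT libraries lie together above KO.

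The 4 genes with a higher value and an unadjusted p under 0.05 in KO (Tnfrsf11b, Tnfrsf10b, Tnfrsf12a and Fas) had WT 1 nearer to the KO mean than to the mean of WT 2 and WT 3 on the log2 scale. Over all genes with such a p and a higher value this held for 72.1%. Among the 4 lower genes it held for 2, and over all genes for 52.9%. The summed stroma markers, at 16002 in WT 1 and 16380 in KO 3 and at 6490 and 7050 in WT 2 and WT 3, moved with the higher genes. In the KO mean, 13 of the 13 tested stroma markers were higher, beside 6510 of all 13260 genes. Of these 13, 9 had an unadjusted limma p under 0.05, beside 14.7% of all genes. For 7 the groups did not overlap, beside 16.1%. The part of stromal cells in these results was not tested. Endothelial markers summed to 206, 107 and 102 in WT and to 185 to 201 in KO, again low in WT 2 and WT 3. Xist was high and the Y-linked genes were low in the same libraries as those with high stroma markers, and the part of sex was not tested either. Against WT 1 alone, the log2 differences of the 4 higher genes were 0.78, 0.37, 0.17 and 0.26 in the order named. WT 1 did not fully match KO in stroma markers or Y-linked genes. The 13 tested stroma markers had a median log2 difference of 0.35 against WT 1, and Kdm5d was at 34 in WT 1 and at most 5 in KO.

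**Figure D5:**
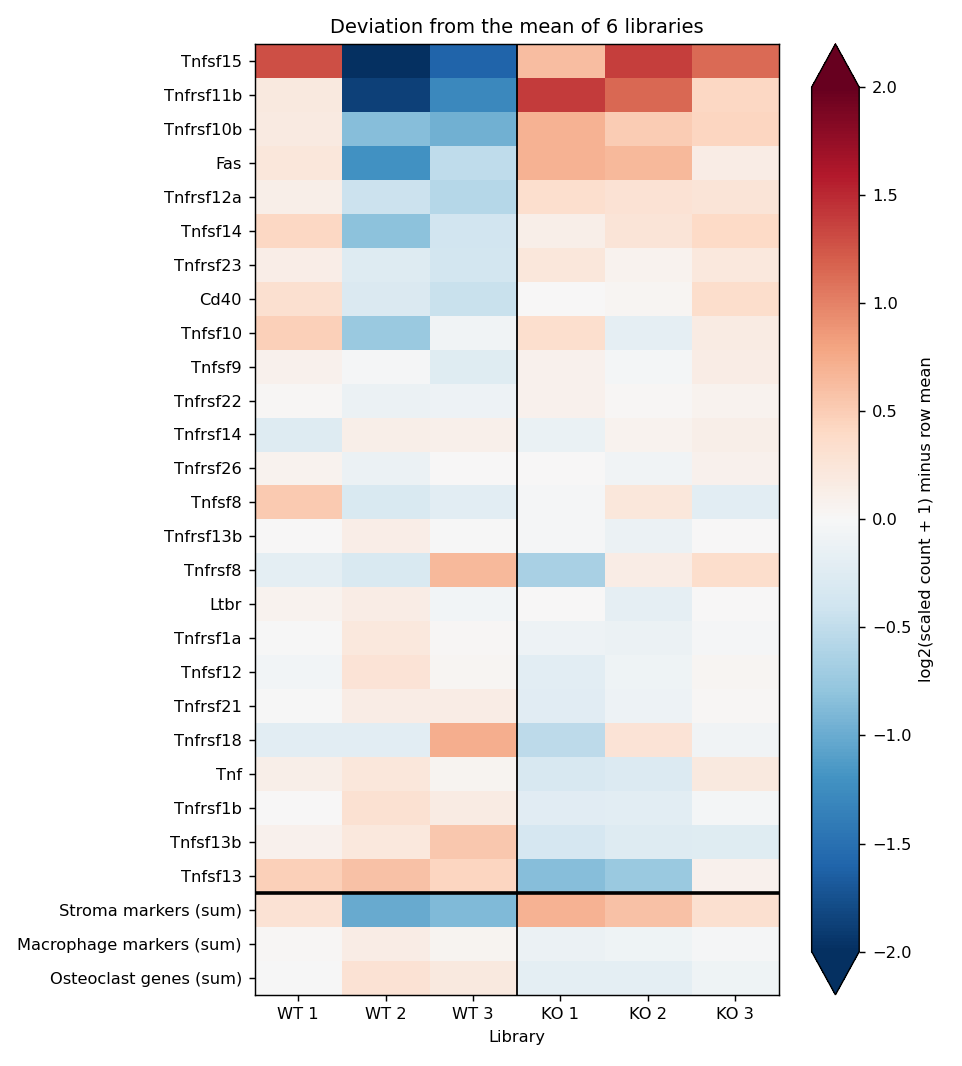
Deviation of each library from the mean of the 6 libraries on the log2(scaled count + 1) scale for the 25 tested genes, ordered by the difference between KO and WT, with the summed stroma, macrophage and osteoclast marker lists below the thick line. WT 2 and WT 3 are low (blue) in the upper genes and in the stroma markers, and WT 1 resembles KO there.

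Without WT 1, 9 family genes passed an adjusted p under 0.05 in limma over all 13260 genes. Those that rose were Tnfrsf10b (log2 difference 1.45, adjusted p = 0.00105), Tnfrsf12a (0.79, 0.00269), Tnfrsf11b (2.56, 0.00503), Tnfsf15 (3.25, 0.00544), Tnfrsf23 (0.49, 0.0184), Fas (1.35, 0.0247) and Tnfsf14 (0.86, 0.044), which is 7 of 25 beside 12.8% of all genes. Those that fell were Tnfrsf1b (-0.39, adjusted p = 0.0264) and Tnfsf13b (-0.66, 0.028), beside 5.07% of all genes. Tnfsf13 did not pass there (adjusted p = 0.0858). Only WT 2 and WT 3 remained as WT libraries in that fit, those with low Xist and low stroma markers. Tnfsf15 reached the filter through the KO libraries, as only 2 WT libraries held 10 or more. Its WT values in that fit were 5 and 13, so its limma p there leans on values near 0 and on the group where it was high. Against WT 1 alone, whose spread is taken from the KO libraries, no family gene passed adjustment in limma. At an unadjusted p under 0.05, 1 of 25 was higher there, Tnfrsf10b, beside 5.17% of all genes, and 0 were lower beside 1.06% (6.23% in either direction).

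Promoter sequences are shown for 4 genes, chosen after their values were seen from those whose groups separated or nearly did, because the study's title names SP1, a factor that binds GC boxes. RefSeq windows (GRCm38.p6) from 250 bases before to 50 after a gene's RefSeq start were found for 27 of the 34 genes, 31 windows in all. The GC box GGGCGG, searched on both strands, was in 14 windows (45.2%) beside 35.7% of all 32851 windows. A loose form of the NF-kB site, GGG and CC with any 5 bases between them, also on both strands, was in 58.1% beside 50.8%. Tnfrsf12a (chr17:23677400-23677699, minus strand) held 5 GC boxes, Fas (chr19:34290409-34290708, plus strand) 2, Tnfrsf1b (chr4:145246821-145247120, minus strand) 2 and Tnfsf13 (chr11:69685505-69685804, minus strand) 1, written here in capitals and 5′ to 3′ along the gene. Those of Tnfsf13b, Tnfsf15 and Tnfrsf1a held none. The Tnfsf13 window follows a RefSeq start that differs from the gene start used above. Most of that window, with its GC box, lies inside the gene as placed there (69682846 to 69685784). No window was found for Tnfrsf10b or Tnfrsf11b, both higher in KO. All 4 windows printed here hold a GC box. Among the windows found, those with GC boxes belonged to genes higher in KO and to genes lower in KO alike. They also belonged to genes whose groups overlapped, such as Tnf and Ltbr, and to genes too low to test, such as Ngfr. A match is a description of the letters only.
Tnfrsf12a: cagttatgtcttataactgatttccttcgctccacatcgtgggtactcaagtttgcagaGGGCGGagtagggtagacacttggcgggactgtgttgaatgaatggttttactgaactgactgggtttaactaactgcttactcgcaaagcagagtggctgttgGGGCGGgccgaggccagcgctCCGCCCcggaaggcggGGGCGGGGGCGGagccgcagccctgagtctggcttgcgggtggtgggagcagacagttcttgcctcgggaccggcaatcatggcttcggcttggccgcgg
Fas: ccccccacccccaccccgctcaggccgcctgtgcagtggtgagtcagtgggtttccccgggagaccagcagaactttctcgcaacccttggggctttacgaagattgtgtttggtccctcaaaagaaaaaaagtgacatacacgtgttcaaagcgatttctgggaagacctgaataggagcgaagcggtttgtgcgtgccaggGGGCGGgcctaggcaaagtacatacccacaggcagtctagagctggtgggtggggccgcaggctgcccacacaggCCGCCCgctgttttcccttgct
Tnfrsf1b: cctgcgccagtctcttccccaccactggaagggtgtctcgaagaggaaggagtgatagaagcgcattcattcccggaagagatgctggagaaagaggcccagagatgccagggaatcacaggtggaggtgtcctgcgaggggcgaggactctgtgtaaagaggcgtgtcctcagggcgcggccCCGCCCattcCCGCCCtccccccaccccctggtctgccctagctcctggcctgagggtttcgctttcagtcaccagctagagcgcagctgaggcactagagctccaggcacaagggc
Tnfsf13: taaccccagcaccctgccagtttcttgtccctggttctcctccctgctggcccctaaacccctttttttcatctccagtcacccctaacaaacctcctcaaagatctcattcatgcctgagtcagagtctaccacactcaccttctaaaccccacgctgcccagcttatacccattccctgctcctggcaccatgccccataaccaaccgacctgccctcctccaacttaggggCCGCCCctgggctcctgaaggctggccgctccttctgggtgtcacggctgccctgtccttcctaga

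The signalling genes downstream of the receptors were read from lists, each beside the shares of all genes with an unadjusted p under 0.05, which were 14.7% higher, 9.68% lower and 24.4% in either direction. Of 25 receptor adaptors and effectors, all tested, KO was higher for 2 and lower for 2 at an unadjusted limma p under 0.05, and for none after adjustment, a smaller share than the 24.4% of all genes. The median log2 difference was -0.0055 beside -0.0046 for all genes, and it was 0.02 under cyclic loess. Traf5, an adaptor of TRAF-binding receptors, had means of 248 ± 9.02 in WT and 196 ± 6.43 in KO, and Traf4, a relative more common in epithelial and mesenchymal cells, of 69.7 ± 49.7 and 191 ± 34.7 (SD, n = 3). Ripk3, the kinase of necroptosis, was at 285 ± 26.3 and 358 ± 10.1, and Otulin, which trims linear ubiquitin chains, at 437 ± 42.3 and 366 ± 35.2. The log2 differences against WT 1 alone were -0.34 for Traf5, 0.58 for Traf4, 0.21 for Ripk3 and -0.09 for Otulin.

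Of 14 NF-kB subunits and inhibitors, none was higher and 4 were lower at an unadjusted limma p under 0.05, beside 14.7% and 9.68% of all genes, and none after adjustment. The median was -0.07, with -0.04 under cyclic loess and -0.15 without KO 3. Nfkbid, which encodes a nuclear inhibitor-like protein, was at 249 ± 53.0 and 159 ± 22.2, the kinase subunit genes Ikbkb at 1149 ± 62.2 and 1026 ± 42.4 and Ikbkg at 992 ± 111 and 841 ± 48.0, and the inhibitor gene Nfkbie at 238 ± 22.8 and 199 ± 17.2 (SD, n = 3). Against WT 1 alone their log2 differences were smaller, -0.31 for Nfkbid, -0.08 for Ikbkb, -0.08 for Ikbkg and -0.10 for Nfkbie. Of 16 tested genes among 24 named TNF and NF-kB response genes, 4 were higher and 2 lower by the same p, beside the same 14.7% and 9.68%. The median of 0.09 had no stable sign, with -0.02 without WT 2, -0.03 without KO 3, -0.07 against WT 1 alone, 0.25 without WT 1, 0.21 without KO 1, 0.03 under cyclic loess and 0.41 without a filter. Ier3, a survival gene, was at 163, 78 and 67 in the WT libraries and 185, 205 and 197 in the KO libraries. The cytokine gene Lif was at 130, 21 and 32 and at 160, 166 and 167, and Ptgs2 at 197, 42 and 59 and at 277, 332 and 294. Tnfaip2 went the other way, with 871, 1196 and 1077 and 782, 808 and 839. In these genes WT 1 lay on the KO side of WT 2 and WT 3, and the log2 differences against WT 1 alone were 0.26 for Ier3, 0.34 for Lif, 0.60 for Ptgs2 and -0.11 for Tnfaip2.

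Of 12 genes for the shedding of TNF and the control of its mRNA, 2 were higher and 1 lower at an unadjusted limma p under 0.05, a share of the list close to the 24.4% of all genes. The median was -0.0048, with 0.07 under cyclic loess, 0.03 without WT 1 and -0.04 against WT 1 alone. Rhbdf1, which encodes a partner of the TNF sheddase, was at 171, 105 and 87 in the WT libraries and 228, 214 and 218 in the KO libraries, and Timp3, the inhibitor of the sheddase made by mesenchymal cells, at 1430, 395 and 381 and at 1502, 1501 and 1447. Zfp36l2, an mRNA decay factor, was at 1110 ± 74.1 and 956 ± 26.1 and Litaf at 1012 ± 85.2 and 910 ± 51.6 (SD, n = 3). Timp3 in WT 1 was close to KO, with a difference of 0.05 against WT 1 alone, where Rhbdf1 had 0.36, Zfp36l2 -0.11 and Litaf -0.07.

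The RANKL axis is known for osteoclast formation, and the osteoclast list had 7 tested genes, 4 of them lower and none higher at an unadjusted limma p under 0.05, beside 9.68% and 14.7% of all genes. The median was -0.22, with -0.14 under cyclic loess and -0.12 against WT 1 alone. Acp5 was at 163, 243 and 276 in the WT libraries and 94, 110 and 98 in the KO libraries, and Atp6v0d2, Clcn7 and Dcstamp were the other lower ones. The groups did not overlap for Acp5, Atp6v0d2 and Clcn7. Dcstamp was at 143, 615 and 472 in the WT libraries and 28, 58 and 147 in the KO libraries, with KO 3 above WT 1. Log2 differences were -1.14 for Acp5, -0.57 for Atp6v0d2, -0.22 for Clcn7 and -2.46 for Dcstamp, and against WT 1 alone -0.69, -0.36, -0.12 and -1.19 in that order. The other 3 had higher KO means. Nfatc1, an osteoclast transcription factor, was at 892, 944 and 881 and at 959, 952 and 975, higher without overlap, while the groups overlapped for Ctsk (133 to 217) and Itgb3 (414 to 558). Family relatives outside the name rule were all higher in the KO mean. Relt was at 73, 47 and 47 in the WT libraries and 114, 92 and 84 in the KO libraries, Eda2r, the ectodysplasin A2 receptor, at 161, 32 and 45 and at 292, 253 and 136, and Eda, its ligand, at 22, 1 and 0 and at 54, 29 and 18. Each had an unadjusted limma p under 0.05 and an adjusted p of 0.158 for Relt, 0.168 for Eda2r and 0.184 for Eda, and WT 1 again stood above WT 2 and WT 3. Against WT 1 alone their log2 differences were 0.39 for Relt, 0.42 for Eda2r and 0.46 for Eda. Eda reached the filter through the KO libraries and WT 1, with WT 2 and WT 3 at 1 and 0. Its limma p therefore leans on values near 0 and on the group where it was high.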

How the data were processed

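The 6 libraries were mRNA-seq libraries of cultured macrophages, made from 3 µg of RNA with a stranded kit and single reads of 72 bases, per the labels' protocols. The tools listed in the submitters' processing notes, with no role or order, include STAR 2.7.10a, featureCounts 2.0.3, Picard 2.27.4 and DESeq2 1.36.0, beside the build mm10. The values deposited by the authors are treated as a score, that is, gene counts scaled per library and rounded, because totals are nearly equal and WT 2 never holds 6, 17, 29 or 40. Reads could not be recovered, so the count test planned for raw counts was not used, no counting interval is given and depth is unknown. Duplicate removal is not stated.

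The 13260 genes reaching 10 in 3 or more libraries entered limma 3.58.1 (R 4.3.3) on log2(value + 1), with an intensity trend, group as the only term and Benjamini-Hochberg adjustment, tested on simulated data. Exon lengths and overlaps came from GENCODE M21. The family genes and lists were chosen with earlier results of these data known. Genes are given in full where the unadjusted p was under 0.05, where groups did not overlap, or for their partners, and up to 4 with the smallest p per list. Tnfsfm13, Tnfsf13os, Cd68, Eif4a1, Tnfsf11 and Tnfrsf19 were singled out after their values were seen. Marker lists of T and NK cells, neutrophils and dendritic cells had 1 tested gene each, summing to 16 to 32, 9 to 26 and 18 to 52 scaled counts. Replicate numbers were not taken as pairs in the main fit. Alternatives changed the scaling, pseudocount, filter, trend, libraries and block.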

Additional observations from a re-analysis of the deposited data

How the results depend on the processing

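Under the 17 alternatives the 12 family genes that separated the groups or passed a threshold with or without WT 1 kept their direction, except Tnfsf15 (-0.24) and Tnfsf14 (-0.16) against WT 1 alone. Over the alternatives that leave out 1 library, the number of family genes past the adjusted threshold ran from 0 to 7 higher and 0 to 2 lower, the count at an unadjusted p from 2 to 8 higher and from 3 to 5 lower, and the number of all genes from 0 to 1691 higher and 0 to 672 lower. All the nonzero adjusted counts came without WT 1, and the count of 2 higher came without WT 2 and without WT 3. In these fits the share of all genes at an unadjusted limma p under 0.05 ran from 10.7% without KO 1 to 32.8% without WT 1. Without a filter, 8 of 34 family genes were higher and 4 lower at an unadjusted limma p under 0.05. The share of all genes in either direction was 21.8% there. Tnfsf11, Tnfrsf19 and Tnfrsf9 were newly tested, and Tnfrsf23 crossed the threshold. Against WT 1 alone the counts were 1 higher and 0 lower. The cause of the other shifts was not tested. Adjusted p-values over all alternatives ran from 0.00105 to 0.79 for Tnfrsf10b, from 0.00503 to 0.791 for Tnfrsf11b and from 0.0858 to 0.79 for Tnfsf13. No scaling moved the median of all genes by more than 0.1, and cyclic loess turned the median of the 25 family genes to -0.02. With the replicate number as a block, 5 family genes were higher and 4 lower at an unadjusted limma p under 0.05 and none passed adjustment. The share of all genes in either direction was 20.7% in that fit. Deviations of same-numbered WT and KO libraries correlated across genes at 0.53, -0.36 and 0.02, and the numbers were not taken as pairs. Deviations from the means of so few libraries cannot exclude pairing. Counts of family genes at an unadjusted p did not otherwise move by more than 1.5 times under the other scalings, pseudocounts, trend setting or stricter filter. For genes with few scaled counts, such as Tnfsf11 and Tnfrsf19, the reads behind a value are unknown.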

Other observations

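Many of the family genes lie near each other, with 17 of the 34 genes in 8 clusters of members no more than 100 kb apart. Some neighbours differed in level or in difference. On chromosome 4, Tnfsf15 ran from 5 to 109 scaled counts over the 6 libraries and had a log2 difference of 2.09, while its neighbour Tnfsf8 ran from 26 to 47 and had -0.0034. On chromosome 6, Tnfrsf1a and Ltbr, which lies within 100 kb of it on the other strand, had similar log2 differences. They were -0.15 ± 0.069 for Tnfrsf1a and -0.10 ± 0.080 for Ltbr (SE), though only Tnfrsf1a separated the groups. On chromosome 7, Tnfrsf23 had 0.34, Tnfrsf22 0.12 and Tnfrsf26 0.03. On chromosome 17, Tnf was at 226 to 330 in every library and Ltb at 1 to 4. Differences between neighbours were not tested.

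The basophil and mast cell gene Mcpt8 stood at 36, 0 and 4 in the WT libraries and 94, 75 and 37 in the KO libraries, and the immunoglobulin joining chain gene Jchain at 18, 13 and 40 and at 7, 10 and 1. Cd22 was at 195, 162 and 189 and at 134, 128 and 113. Among B cell genes Cd79b went the other way, at 17, 9 and 12 and at 29, 34 and 39. None of these 4 passed limma after adjustment (adjusted p from 0.158 to 0.184).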
